A study of Mus musculus with 460 samples.

Results

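Cell cycle genes expressed from S phase to mitosis were followed in the single cells of a series on cancer-associated fibroblasts (CAFs), stromal cells of a tumour. The set holds 44 of the 48440 genes in the deposited table: 25 act in G2 and mitosis and 19 in S phase. They were taken by symbol from a list of standard cell cycle genes, and no measured value entered that rule. Earlier results of these data were known when the list was chosen. All 44 were found. The questions were how many cells carried a joint S or G2/M programme in place of stray counts, and whether those cells had more counts of Rgs5 or of Pdgfra.

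The series holds 460 single cells in 1 group, each its own sample, from mice with lung adenocarcinoma. Every cell shares the mouse strain, the tumour type and the cell type label, and no other group is described. The labels give no animal, age, culture or batch, so the 460 cells count as 1 sample: no p-value or standard error was made from them, and each interval below is an exact 95% Clopper-Pearson interval that covers counting error only. The libraries came from total RNA of single cells with sonication and ligation, and the values are molecular barcode counts. Totals ran from 25029 to 240496 counts per cell, with a median of 88701, and CPM stands for counts per 1000000 counts of a cell. No cell's counts were identical to another's. Cells are named by their titles, such as CAF_sc365.

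A dividing cell copies its DNA in S phase, then passes through G2 and separates its chromosomes in mitosis. S phase genes supply the replication machinery and its nucleotides, and many are targets of the E2F factors. G2/M genes condense the chromosomes, build the spindle and encode the mitotic kinases, and many of their promoters hold a cell cycle homology region (CHR) together with CCAAT boxes. The RNAs of each phase accumulate together, which is what a joint programme means here. Rgs5, a regulator of G protein signalling, is a marker of pericytes, and Pdgfra, a receptor for platelet-derived growth factor, is a marker of fibroblasts.

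A joint programme was carried by 15 of the 460 cells (3.26%, interval 1.84 to 5.32). A G2/M programme was defined as at least 13 of the 25 G2/M members with at least 3 counts each, and an S programme as at least 10 of the 19 S members with at least 3 counts each. Each was carried by 10 cells (2.17%, interval 1.05 to 3.96). Both programmes were present in 5 cells, the G2/M programme alone in 5 and the S programme alone in 5. These 15 are called programme cells below, and the remainder of the 460 the other cells. The S-only cells CAF_sc103 and CAF_sc425 met the limit with no margin and did not stand apart in S genes outside the members, as given below; without them the limits were met by 13 cells.

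For G2/M members the cells fell into ranges separated by a gap, and the limit of 13 lies above that gap. In 37.2% of cells none of the 25 members reached 3 counts, in 35% 1 did, in 16.1% 2 did, and in 27 cells 3 did. Members at this level numbered 4 in 10 cells, 5 in 3 cells and 6 in 1 cell, and no cell held 7 to 9. Above that gap lay 2 cells with 10 members, 1 with 11, and the 10 cells with 13 to 25. The nearest below the limit of the G2/M programme alone was CAF_sc71 with 11, which carried the S programme, followed by CAF_sc2 and CAF_sc191 with 10. The nearest above it were CAF_sc84 and CAF_sc262 with 13 members each. The summed G2/M members were at 1306 CPM in CAF_sc2 and 1511.5 CPM in CAF_sc191, above the 1285 CPM of CAF_sc262.

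For S members the step at the limit was less sharp. The number with at least 3 counts was most often 3 (23.9% of cells) or 2 (23.3%). It was 7 in 13 cells, 8 in 1 cell and 9 in 1 cell. Then came CAF_sc103 and CAF_sc425 with 10 members, CAF_sc222 and CAF_sc442 with 12, none with 13 to 15, and 6 cells with 16 to 19. The 4 cells with 10 or 12 S members thus lie close to the limit and apart from the 6 above it. CAF_sc452, with 9 S members, was the nearest below, and its epithelial markers summed to 13467 CPM.

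**Figure D1:**
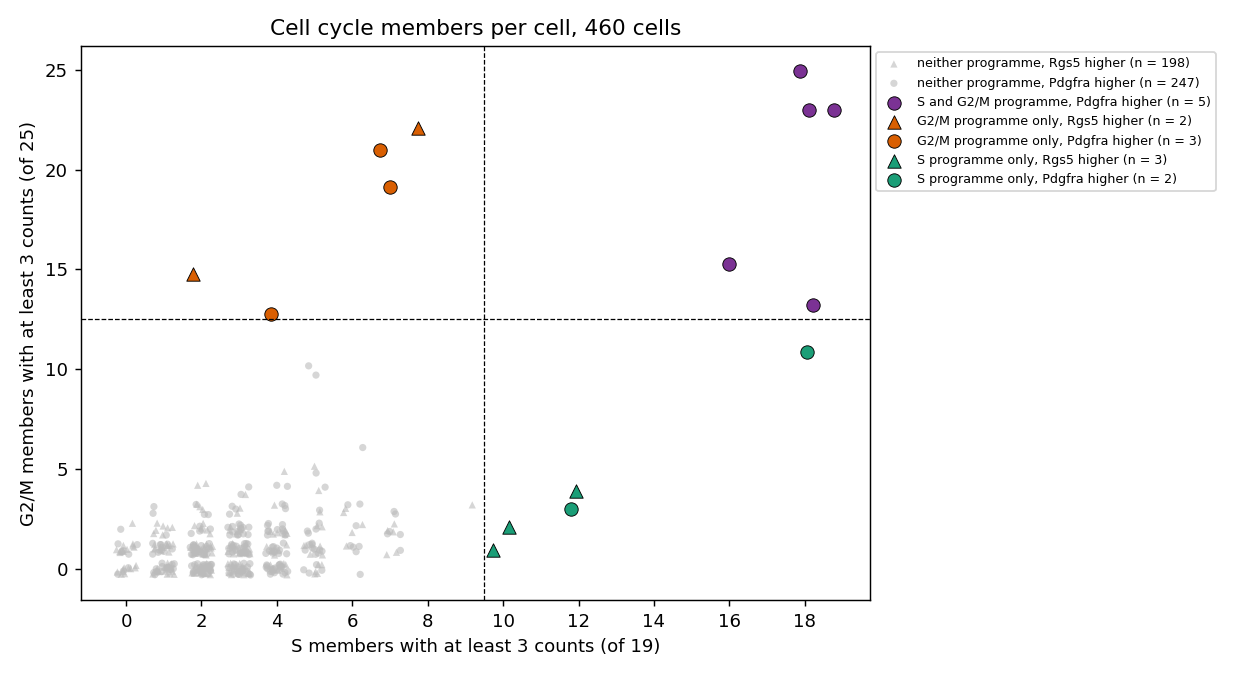
Each point is 1 of the 460 cells, with the number of S members (x axis, of 19) and of G2/M members (y axis, of 25) that had at least 3 counts. Points are shifted by up to 0.3 at random so that they do not hide each other, dashed lines mark the limits of 10 and 13 members, and triangles have more Rgs5 counts than Pdgfra counts. The 5 cells with both programmes stand at 16 to 19 S members, and all cells with neither lie in the lower left field.

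Stray counts were common. The other cells are by definition those under both limits, so their low numbers of joint members follow in part from the split. Of the other cells, 92.4% had at least 1 count of some G2/M member and 99.8% at least 1 count of some S member. Their median was 1 G2/M member and 3 S members at 3 counts or more, with maxima of 10 and 9. A count of some member was therefore a poor mark of a programme cell. Single members differed: they were counted in 1.12% (Ccnb1) to 84.9% (Pcna) of the other cells, with a median of 10.1% over the 44. Mki67, the proliferation antigen Ki-67 that coats mitotic chromosomes, was counted in 44.5% of the other cells, with a median of 2 counts where present. Top2a, the topoisomerase that untangles replicated DNA, was counted among other cells with Mki67 at 20.7%, interval 15.3 to 27.02, and among those without it at 15.8%, interval 11.5 to 20.9. These intervals overlap. At least 10 Mki67 counts were present in 28 cells, of which 11 were programme cells with a median of 19 G2/M members and 17 were other cells with a median of 3.

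A small set of cells held a large part of the member counts. The 15 programme cells held 60.97% of the 10775 counts of the G2/M members and 28.8% of the 14029 counts of the S members, or 42.8% of both together. For 19 of the 25 G2/M members and 6 of the 19 S members the programme cells held over 50% of all counts. The share was highest for Ccnb1 (93.5%), Bub1 (93.4%) and Kif11 (85.9%) among G2/M members, and for Rrm2 (75.8%), Mcm6 (68.3%) and Ccne2 (65.6%) among S members. The lowest were Cenpa (14.6%) and Slbp (10.2%). Programme cells were deeper than the others, with a median of 134000 against 87916 counts. With every cell thinned to 56586 counts and 46 shallower cells left out, 10 cells (2.42%, interval 1.16 to 4.40) met the same limits and held 32.8% of the member counts.

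The members defined the split, so their levels in programme cells describe it and test nothing. Against the other cells, 43 of the 44 members had a mean CPM at least 4 times higher in the programme cells, with 1 CPM added to each mean. All 44 passed the filter of a count in 10% of either set of cells. Over all 15882 genes that passed it, 3.38% were at least 4 times higher, and 3.12% of those that are not members. The exception was Slbp at 2.31 times. The median was 28.04 times for G2/M members, 9.06 times for S members and 1.03 times for all genes.

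S members are taken first, in the order of the cycle. Pcna, the sliding clamp that holds DNA polymerase on its template, lies at chr2:132249162-132253314 (mm10, with GENCODE vM21 gene models here and below). Its levels were 938, 749.6, 765, 486 and 371.6 CPM in the 5 cells with both programmes, CAF_sc365, CAF_sc153, CAF_sc155, CAF_sc84 and CAF_sc441, in this order here and below. Over the 15 programme cells Pcna ran from 19.6 to 938 CPM with a median of 249.02, and the mean was 329.3 CPM against 66.4 CPM in the other cells. Pcna was also the most widespread stray member, counted in 84.9% of the other cells. Pcna-ps2, a pseudogene copy, held 1541 counts beside the 3389 of Pcna, with means of 179.3 and 27.8 CPM in the same sets of cells. How the counting split reads between such copies is not given in the sources used here, so the level of Pcna is uncertain.

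The 6 MCM genes encode the subunits of the helicase that unwinds DNA at the fork. Mcm3, at chr1:20802968-20820312, was at 180.3, 189.7, 261.5, 410.3 and 886 CPM in the 5 cells with both programmes. Over the 15 cells it ran from 0 to 886 CPM with a median of 100.9, and the mean was 175.8 CPM against 9.10 CPM. Mcm5, at chr8:75109569-75128439, was at 338.96, 171.2, 309.98, 450.8 and 257.3 CPM in those 5 cells and ran from 0 to 450.8 CPM with a median of 125.3, a mean of 147.3 CPM against 6.31 CPM. Both genes were at 0 in some G2/M-only cells and were counted in all 5 cells with S alone. Across the 6 MCM genes the means in programme cells lay between 85.7 and 175.8 CPM, 5.84 to 26.3 times those of the other cells. Mcm7 had the smallest ratio, and it overlaps other annotated genes.

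Nucleotide supply was represented by Rrm1 and Rrm2, the large and small subunits of ribonucleotide reductase, and by Tyms, thymidylate synthase (68.8 CPM against 6.71 CPM). Rrm1, at chr7:102441695-102469771, was at 411.1, 347.03, 387.5, 263.4 and 414.5 CPM in the 5 cells with both programmes and ran from 20.9 to 414.5 CPM with a median of 124.1 over the 15, a mean of 173.8 CPM against 37.7 CPM. Rrm2, at chr12:24708241-24714146, was at 375.02, 421.1, 290.6, 319.1 and 157.2 CPM in those 5 and ran from 0 to 421.1 CPM with a median of 37.3, a mean of 122.1 CPM against 2.13 CPM. The subunits differed in their stray counts: Rrm1 was counted in 66.1% of the other cells and Rrm2 in 9.21%.

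The remaining S members act at origins, at the switch into S phase and on new chromatin. Cdc6 and Cdt1, which load the helicase on origins, and Gins2, a subunit of the active helicase, had means of 27.7 to 75.6 CPM in programme cells. The G1/S switch genes Ccne1 and Ccne2 (E-type cyclins) and E2f1 (a transcription factor of S phase genes) had 20.2 to 48.5 CPM. Uhrf1 (which links DNA methylation to replication), Chaf1a (a histone chaperone at the fork) and Slbp (which binds histone mRNA) had 21.02 to 103.9 CPM. Slbp was counted in 73.03% of the other cells, second to Pcna, at a mean of 44.4 CPM there.

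Among G2/M members, Mki67 (chr7:135689784-135716361) had the highest mean. It was at 2027, 1828, 2286, 805 and 1558 CPM in the 5 cells with both programmes, and at 851, 2638, 485, 3039 and 225.5 CPM in those with the G2/M programme alone, CAF_sc354, CAF_sc360, CAF_sc51, CAF_sc239 and CAF_sc262, in this order here and below. In the cells with the S programme alone it was at 330.9, 0, 37.2, 77.1 and 48.8 CPM (CAF_sc71, CAF_sc442, CAF_sc222, CAF_sc103 and CAF_sc425). All 10 cells with a G2/M programme had at least 23 counts, and 4 of the 5 without it at most 8. The mean was 1082 CPM against 18.3 CPM, and per 1000 exon bases 107.6 against 1.82. The highest count in another cell was 68, in CAF_sc191.

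Top2a (chr11:98992943-99024189) was at 923, 944, 1085, 420.4 and 929 CPM in the 5 cells with both programmes and at 746, 211.3, 14.3, 74.4 and 39.2 CPM with G2/M alone. These sets overlapped only through CAF_sc354, and their means were 860.3 and 217.1 CPM. Hmgb2, a chromatin protein that bends DNA (chr8:57511907-57515999), was at 555, 477, 504, 121.6 and 114.3 CPM against 141.8, 1275, 784, 111.6 and 39.2 CPM, so its sets overlapped. The mean of Hmgb2 was 284.2 CPM against 18.9 CPM, and 44.3% of the other cells had a count of it.

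Tpx2, which activates Aurora A on the spindle (chr2:152847964-152895321), was at 331.7, 463, 309.98, 167.1 and 385.9 CPM with both programmes and at 119.4, 1006, 99.8, 384.6 and 19.6 CPM with G2/M alone, a mean of 226.9 CPM against 3.90 CPM over the programme and the other cells. Ccna2, the A-type cyclin of S and G2 (chr3:36564865-36572150), was at 245.2, 342.4, 368.1, 182.3 and 285.8 CPM with both programmes and 82.1, 415.4, 128.4, 37.2 and 29.4 CPM with G2/M alone. Its mean was 144.1 CPM against 4.71 CPM. Ccna2 was at 0 in 4 of the 5 cells with S alone, the exception being CAF_sc71 with 8 counts. Ccna2 overlaps Exosc9 on the opposite strand. In all, 20 of the 44 members overlap another annotated gene, 16 of them one on the opposite strand, and whether counting used the strand is not given in the sources used here.

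The other mitotic members split the programme cells further. Ccnb1 and Ccnb2, the B-type cyclins that partner Cdk1 at entry into mitosis, were at means of 43.4 and 43.3 CPM with both programmes and at 68.5 and 243.2 CPM with G2/M alone. Cenpe (a kinesin at the kinetochore), Cenpf (a kinetochore protein) and Cenpa (the centromeric histone H3) were at 99.4, 57.4 and 17.8 CPM with both programmes, against 332.5, 190.5 and 183.6 CPM with G2/M alone. Aurkb, the kinase of the chromosomal passenger complex, was at 151.5, 161.9, 87.2, 40.5 and 157.2 CPM with both programmes and at 0 in all 5 cells with G2/M alone. Nusap1 and Prc1, which bundle spindle microtubules, were at 213.9 and 214.4 CPM with both programmes and at 40.9 and 30.1 CPM with G2/M alone. Of the 25 G2/M members, 14 had the higher mean with both programmes and 11 with G2/M alone. With 5 cells of 1 sample in each set no test was made, and these members were picked after their values were seen.

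The mitotic kinases Cdk1, Aurka, Aurkb, Plk1, Bub1 and Bub1b, which drive mitotic entry, spindle assembly and the spindle checkpoint, had means of 39.9 to 87.98 CPM in programme cells, 11.5 to 52.5 times those of the other cells. Bub1 reached 3 counts in 9 programme cells, and 9 other cells had 1 count each. The spindle and cytokinesis genes are Kif11, Kif20a and Kif23 (kinesins), Ckap2l (a spindle protein), Anln (anillin of the cleavage furrow), Tpx2, Nusap1 and Prc1. Their means were 31.2 to 226.9 CPM, 9.09 to 51.8 times higher. Birc5 (survivin) was at 30.98 CPM against 0.731 CPM, and Ube2c (the ubiquitin-conjugating enzyme of the anaphase-promoting complex) at 33.2 CPM against 1.27 CPM.

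All 19 S members had a higher mean in the cells with both programmes than in those with G2/M alone, with a median member mean of 207.02 against 20.5 CPM. The definition requires S members in the first set only, so this is a description. Cdc6, Gins2, Ccne1 and Ccne2 had no count in any of the 5 cells with G2/M alone. In the cells with the S programme alone the median S member mean was 48.97 CPM and the median G2/M member mean 3.42 CPM. CAF_sc71 differed from the other 4 of that set: 18 S members and 11 G2/M members reached 3 counts, against 10 to 12 and 1 to 4.

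**Figure D2:**
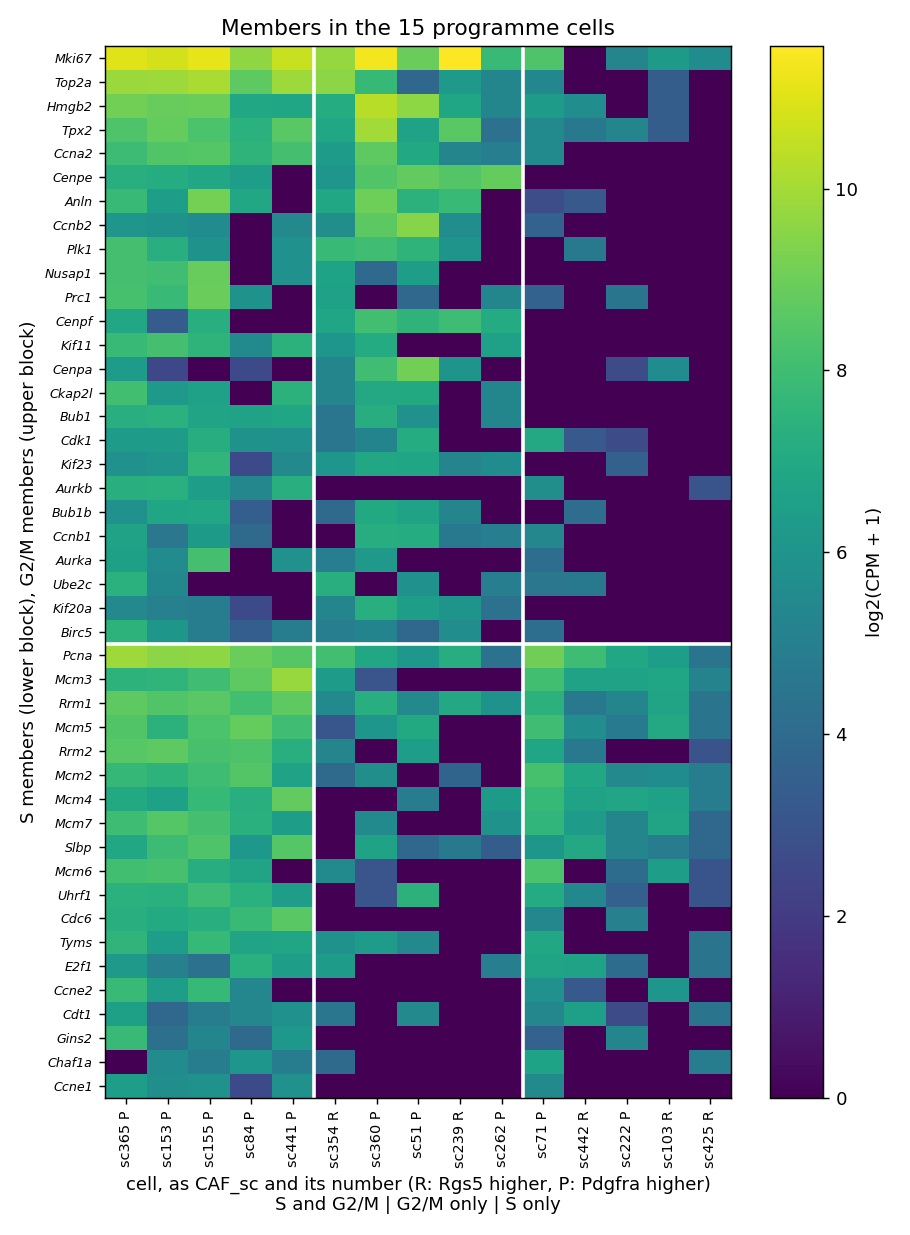
Rows are the 44 members, G2/M above the white line and S below it, ordered by mean CPM. Columns are the 15 programme cells, with both programmes (left), G2/M alone (middle) and S alone (right); colour is log2(CPM + 1), and R or P marks more Rgs5 or more Pdgfra counts. The G2/M block is mostly dark in the S-only cells other than CAF_sc71, and Cdc6, Gins2, Ccne1 and Ccne2 are at 0 in all G2/M-only cells.

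Promoters of members whose counts lay mostly in programme cells are printed to show what they share in sequence, which the choice of members did not use. They are the 3 G2/M and 3 S members with the largest share of counts in programme cells that have an entry in the RefSeq promoter table (GRCm38.p6, the assembly of mm10), with Top2a and Mcm5, the next of each list, added after their values were seen. Each line is the 200 bases before the RefSeq start, on the gene's strand, 5′ to 3′. Capitals mark the searched motifs on either strand: the CHR TTTGAA, the box CCAAT, and the E2F words TTTCGCGC, TTTGGCGC, TTTCCCGC and TTTGCCGC. The G2/M promoters are Ccnb1 (chr13:100786487-100786686, minus strand), Bub1 (chr2:127831860-127832059, minus), Kif11 (chr19:37376182-37376381, plus) and Top2a (chr11:99024190-99024389, minus).
Ccnb1: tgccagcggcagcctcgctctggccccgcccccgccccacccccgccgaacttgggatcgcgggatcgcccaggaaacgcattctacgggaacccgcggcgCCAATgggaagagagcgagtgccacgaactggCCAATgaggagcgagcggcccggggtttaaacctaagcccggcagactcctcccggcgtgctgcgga
Bub1: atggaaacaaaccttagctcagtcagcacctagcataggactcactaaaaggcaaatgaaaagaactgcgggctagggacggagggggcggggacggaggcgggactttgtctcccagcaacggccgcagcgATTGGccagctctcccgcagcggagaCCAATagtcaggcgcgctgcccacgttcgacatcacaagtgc
Kif11: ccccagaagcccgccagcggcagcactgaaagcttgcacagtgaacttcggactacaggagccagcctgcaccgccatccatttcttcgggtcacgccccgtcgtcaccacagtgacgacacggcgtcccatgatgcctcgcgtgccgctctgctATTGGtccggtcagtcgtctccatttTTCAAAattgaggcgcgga
Top2a: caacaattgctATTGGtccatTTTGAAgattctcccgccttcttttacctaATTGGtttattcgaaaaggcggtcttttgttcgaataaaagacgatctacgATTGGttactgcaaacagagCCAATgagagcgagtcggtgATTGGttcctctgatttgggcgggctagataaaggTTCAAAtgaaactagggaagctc

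The S promoters are Rrm2 (chr12:24708054-24708253, plus strand), Mcm6 (chr1:128359706-128359905, minus), Uhrf1 (chr17:56303137-56303336, plus) and Mcm5 (chr8:75109309-75109508, plus), shown so that their boxes can be set beside those of the mitotic genes.
Rrm2: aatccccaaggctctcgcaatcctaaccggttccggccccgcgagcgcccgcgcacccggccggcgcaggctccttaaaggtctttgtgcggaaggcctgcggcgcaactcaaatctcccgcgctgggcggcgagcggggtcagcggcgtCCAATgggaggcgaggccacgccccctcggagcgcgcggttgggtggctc
Mcm6: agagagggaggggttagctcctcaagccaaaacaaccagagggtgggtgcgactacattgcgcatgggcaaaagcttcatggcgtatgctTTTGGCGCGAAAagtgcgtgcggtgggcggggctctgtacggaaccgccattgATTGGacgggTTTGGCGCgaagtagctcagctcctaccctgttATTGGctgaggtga
Uhrf1: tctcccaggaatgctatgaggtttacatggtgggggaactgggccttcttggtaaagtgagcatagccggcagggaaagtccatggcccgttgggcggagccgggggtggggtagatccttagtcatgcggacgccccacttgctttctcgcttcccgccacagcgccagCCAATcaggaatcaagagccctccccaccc
Mcm5: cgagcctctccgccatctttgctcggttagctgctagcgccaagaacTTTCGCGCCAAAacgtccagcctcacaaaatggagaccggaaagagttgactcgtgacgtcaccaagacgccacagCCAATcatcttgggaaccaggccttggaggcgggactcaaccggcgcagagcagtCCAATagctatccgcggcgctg

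CCAAT boxes were in all 8 printed promoters, beginning 42 to 99 bases before the start in Ccnb1 and Bub1. A CHR was in Kif11, beginning 19 bases before the start, and in Top2a, at 23 bases and again farther upstream, and in none of the 4 S promoters. E2F words were in Mcm6 and Mcm5, each with a pair of overlapping words on opposite strands, and Mcm6 had another at 47 bases. The printed lines of Ccnb1 and Bub1 held no TTTGAA on either strand. The RefSeq start of Ccnb1 lies 84 bases from that of its GENCODE model.

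Over windows of 250 bases before to 50 after the start, 37 of the 44 members had an entry, 21 of G2/M and 16 of S. The CHR was in 16 of the 21 G2/M promoters (76.2%), in 1 of the 16 S promoters (6.25%) and in 17.9% of all 32851 entries. CCAAT was in 18 of 21 (85.7%) and 11 of 16 (68.8%), against 37.4% of all entries. Both together were in 15 of 21 (71.4%) and in 1 of 16, Mcm2, against 6.95%. An E2F word was in 1 of 21, Cdk1, and in 6 of 16 (37.5%), namely Mcm3, Mcm5, Mcm6, Mcm7, Cdc6 and Cdt1, against 2.26% of all entries. A match shows only that the letters are present. Ccnb1 and Bub1, which had the highest shares of counts in programme cells, were among the 5 G2/M members without a CHR match. Only the word TTTGAA was searched for the CHR, so other forms of it would be missed.

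Cell cycle genes that are not members were higher in the same cells. Their lists were also chosen with earlier results of these data known, so they are no independent check. Of 50 other G2/M genes, 48 were at least 4 times higher in the programme cells, with a median of 16.6 times. Of 54 other S genes, 34 were, with a median of 4.84 times (3.12% of all genes that are not members). A gene could pass the filter through the programme cells alone, as could the genes behind the 3.12%. Without the programme cells, 18 of the 50 G2/M genes were counted in 10% of cells with more Rgs5 or with more Pdgfra. The same held for 37 of the 54 S genes. Most of the G2/M list thus passed through the programme cells alone, and its ratios describe those cells and test nothing. Cdc25c, for example, was counted in 6 of 15 programme cells and in 0.449% of the other cells. The 10 most abundant of the G2/M list were Foxm1 (a transcription factor of G2/M genes, 228.5 against 17.99 CPM), Ncapd2 and Ncaph (condensin subunits), Smc4 and Smc2 (the condensin ATPases), Mad2l1 (spindle checkpoint), Racgap1 (cytokinesis), Incenp (passenger complex), Casc5 (kinetochore) and Kif15 (a kinesin, 87.4 against 1.01 CPM). All 10 were at least 4 times higher, and Smc4, at 203.97 against 40.4 CPM, was the most widespread of them in the other cells (62.7%). The 10 of the S list were Dnmt1 (maintenance DNA methyltransferase, 283.9 against 59.7 CPM), Lig1 (DNA ligase, 227.4 against 10.4 CPM), Topbp1 (checkpoint signalling and origin firing), Atad2 (a chromatin ATPase), E2f7 (a repressor of E2F targets), Rpa1 (single-strand DNA binding), Ezh2 (a histone methyltransferase), Pole (a DNA polymerase subunit), Usp1 (a deubiquitinase of DNA repair) and Tcf19. Of these, Rpa1 and Usp1 were under 4 times, at 2.96 and 3.53.

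By cell, the cells with both programmes had 24 to 48 of the 50 other G2/M genes and 28 to 49 of the 54 other S genes at 3 counts or more. Those with G2/M alone had 14 to 35 other G2/M genes. The 14 were in CAF_sc262, under the 17 of CAF_sc2, which carried no programme. The other cells had a median of 2 other G2/M genes (95th percentile 5, maximum 17) and 6 other S genes (95th percentile 11, maximum 20). Of the S-only cells, CAF_sc71 had 39 other S genes, CAF_sc442 and CAF_sc222 had 17 each, and CAF_sc103 and CAF_sc425 had 10 and 11. The last 2 values are at or under the 95th percentile of the other cells, so genes outside the members did not set these cells apart. CAF_sc442 and CAF_sc222 lie above that percentile and under the maximum of 20, which was in CAF_sc56, and neither met the limits after thinning. CAF_sc222 was deep, with 188285 counts, as was CAF_sc56 with 198432. The summed S members were at 1112, 626.7, 868 and 292.8 CPM in CAF_sc442, CAF_sc222, CAF_sc103 and CAF_sc425. The other cells had a median of 230.6 and a maximum of 995 CPM.

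**Figure D3:**
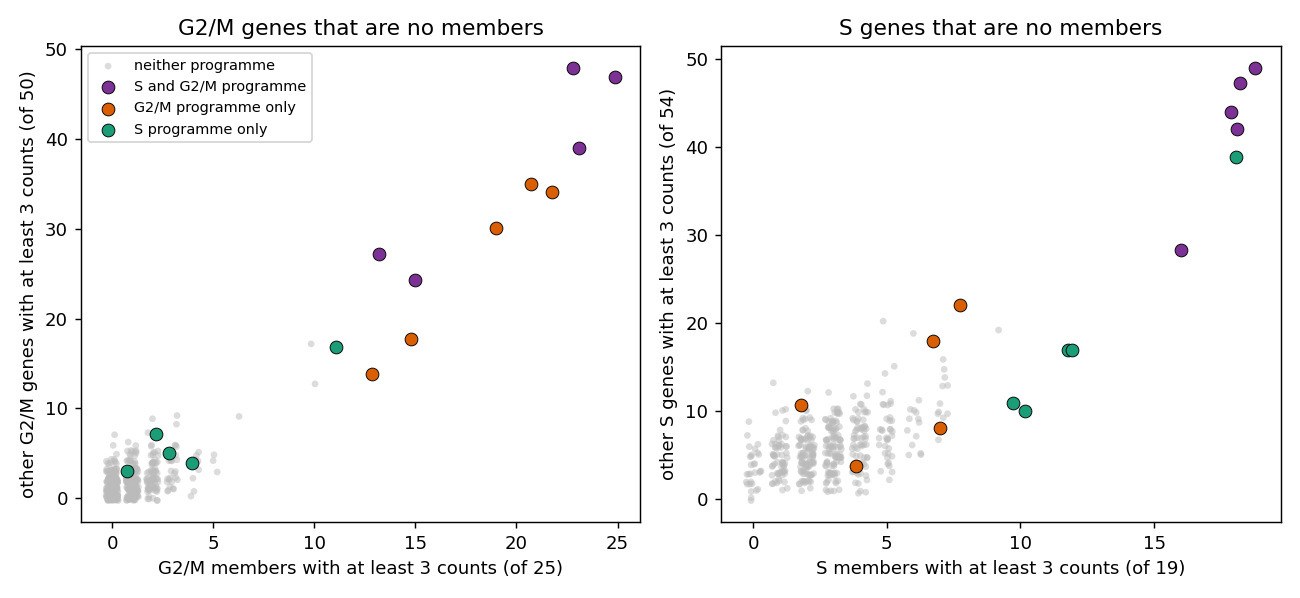
For each of the 460 cells, the number of members (x axis) and of other cell cycle genes (y axis) with at least 3 counts, for G2/M genes (left) and S genes (right); points are shifted by up to 0.3 at random. The cells with both programmes reach 24 to 48 other G2/M and 28 to 49 other S genes, and the S-only cells CAF_sc103 and CAF_sc425 lie at 10 and 11 other S genes.

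Genes upstream of S phase entry differed less between these cells. None of 10 G1 drivers was 4 times higher in the programme cells, and their median was 1.31 times. Ccnd2 and Ccnd1 (D-type cyclins) were at 521 against 524 CPM and 331.2 against 248.3 CPM, their partners Cdk6 and Cdk4 at 336.9 against 443.98 CPM and 257.95 against 102.4 CPM, and the transcription factor Myc at 257.96 against 176.9 CPM. A list of 16 genes held cycle inhibitors and targets of the tumour suppressor p53. Of these, 1 was at least 4 times higher and 1 at least 4 times lower, beside 3.38% and 2.58% of all genes. The first was Rbl1, a relative of the retinoblastoma protein (64.9 against 5.86 CPM), and the second Cdkn2b, the inhibitor p15 of the kinases that partner D-type cyclins (14.2 against 65.3 CPM). Cdkn2b was counted in 9 of 15 programme cells and in 67.4% of the others. The 5 most abundant were Btg2 (454.4 against 610.3 CPM), Cdkn1a (the inhibitor p21, 125.004 against 61.9 CPM), Mdm2 (a p53 target and no cycle inhibitor, 107.97 against 129.3 CPM), Ccng1 (101.9 against 58.2 CPM) and Cdkn1b (the inhibitor p27, 95.6 against 96.6 CPM).

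Among genes on none of the lists and counted in at least 50% of the programme cells, the 15 with the largest ratios were Kif14 (56.3 times, 72.8 against 0.311 CPM), Kntc1, Cep55, Ncapg2, Slfn9, Spag5, Prr11, Diaph3, Ercc6l, Cenpi, Stmn1, Brip1, Parpbp, Lockd and Chil3. Kif14 is a kinesin of cytokinesis, Cep55 acts at abscission, Kntc1 and Cenpi are proteins of the kinetochore and centromere, Spag5 is a spindle protein, and Stmn1 binds tubulin (283.2 against 15.02 CPM). Chil3, a chitinase-like protein of macrophages, stood at 878 against 60.1 CPM, and its level was 5918 CPM in CAF_sc354, 5653 CPM in CAF_sc442 and 1331 CPM in CAF_sc103 and at most 85.8 CPM in any other programme cell.

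Pdgfra counts exceeded Rgs5 counts in 10 of the 15 programme cells, and Rgs5 exceeded Pdgfra in 5 (33.3%, interval 11.8 to 61.6). Among the other cells Rgs5 was above in a larger share (44.5%, interval 39.8 to 49.2), and no cell had equal counts. The interval for the programme cells contains that share. It covers counting error only, and cells of 1 sample allow no test of a difference. CAF_sc103 and CAF_sc425, which did not stand apart in other S genes, are 2 of the 5, and without them Rgs5 was above in 3 of 13 programme cells (23.1%). CAF_sc262, which has more Pdgfra and also met its limit with no margin, was kept in that share. Seen from the other side, a programme was carried by 5 of the cells with more Rgs5 (2.46%, interval 0.804 to 5.65) and by 10 of those with more Pdgfra (3.89%, interval 1.88 to 7.04). Cells with more Rgs5 were shallower, with a median of 76944 against 96654 counts. With cells thinned to 56586 counts the programme was in 2 cells (1.16%, interval 0.141 to 4.14) and 8 cells (3.35%, interval 1.46 to 6.49), and these intervals also overlap. Without the 5% of cells with the most counts, which held 4 of the 15 programme cells, the order turned, with shares of 2.56% with more Rgs5 and 2.48% with more Pdgfra.

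All 5 cells with both programmes had more Pdgfra. The levels of Rgs5 and Pdgfra were 173.1 and 1075 CPM in CAF_sc365, 212.8 and 1272 CPM in CAF_sc153, 174.4 and 1346 CPM in CAF_sc155, 96.2 and 1444 CPM in CAF_sc84 and 371.6 and 1229 CPM in CAF_sc441. With G2/M alone they were 123.9 and 663 CPM in CAF_sc360, 670.3 and 770.2 CPM in CAF_sc51, 39.2 and 1794 CPM in CAF_sc262, 940.3 and 388.1 CPM in CAF_sc354 and 1303 and 1042 CPM in CAF_sc239, with Rgs5 above in the last 2. With S alone they were 85.6 and 1404 CPM in CAF_sc71, 132.8 and 542 CPM in CAF_sc222, 697 and 215.8 CPM in CAF_sc442, 6788 and 144.6 CPM in CAF_sc103 and 1666 and 641 CPM in CAF_sc425, with Rgs5 above in the last 3. Rgs5 was thus above in 0 of 5, 2 of 5 and 3 of 5 cells. Among the 6 cells with at least 16 S members it was above in 0 (0%, interval 0 to 45.9), an interval that includes the share of the other cells. The cells with 6 to 10 G2/M members and no programme, CAF_sc2, CAF_sc191 and CAF_sc361, all had more Pdgfra as well.

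Most of the 5 programme cells with more Rgs5 were low in it for their side. Over all cells with more Rgs5 the lower quartile was 2671 CPM of Rgs5. CAF_sc103 was above that, and CAF_sc425, CAF_sc239, CAF_sc354 and CAF_sc442 were below it, at 697 to 1666 CPM. Of the 10 programme cells with more Pdgfra, 6 were at or above the lower quartile of Pdgfra on their side, 1117 CPM. In CAF_sc239 the larger of the counts was 1.25 times the smaller and in CAF_sc51 1.15 times, so both lie near the line of equal counts.

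**Figure D4:**
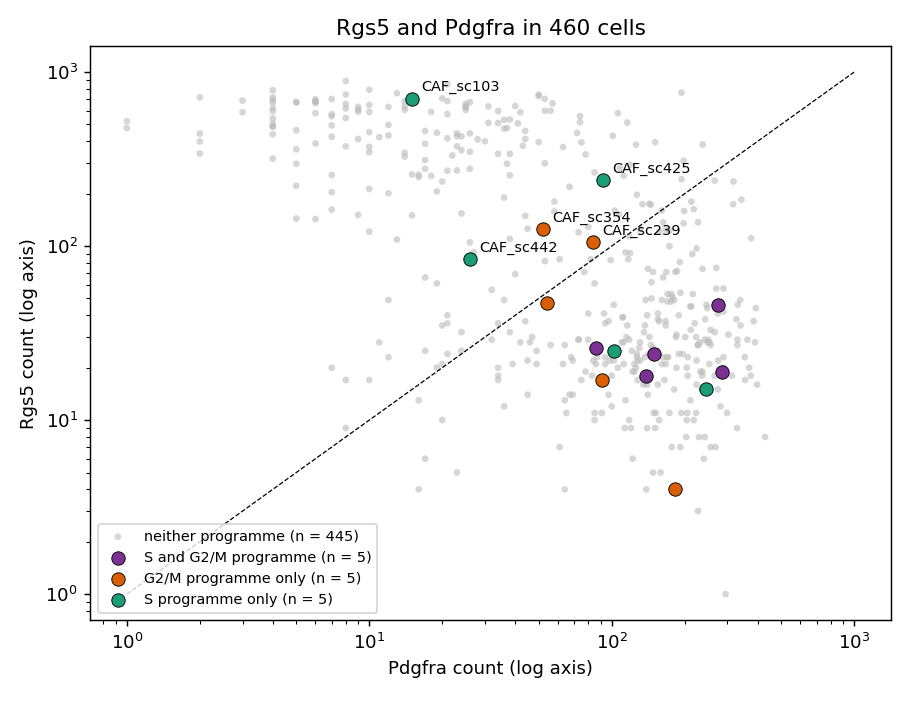
Counts of Pdgfra (x axis) and Rgs5 (y axis), both on log axes, in the 460 cells; the dashed line marks equal counts, and colours mark the programme of the 15 programme cells. CAF_sc103, CAF_sc425, CAF_sc354, CAF_sc442 and CAF_sc239 lie above the line, and all but CAF_sc103 are below the lower quartile of 2671 CPM of Rgs5 on that side.

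Immune markers were high in 3 of the 5 programme cells with more Rgs5. The 12 immune markers summed to 11843, 11372 and 2459 CPM in CAF_sc354, CAF_sc442 and CAF_sc103, and to 161.3 and 48.8 CPM in CAF_sc239 and CAF_sc425. In the 10 programme cells with more Pdgfra they summed to 0 to 314.4 CPM with a median of 61.02, and in the other cells the medians were 100.6 CPM with more Rgs5 and 83.8 CPM with more Pdgfra. In CAF_sc354, CAF_sc442 and CAF_sc103 Ptprc (CD45, of leukocytes) was at 522, 406.7 and 134.99 CPM and Lyz2 (lysozyme, of myeloid cells) at 5000, 5611 and 1687 CPM. Cd68, a macrophage marker, was at 896, 955 and 48.2 CPM and Csf1r, the receptor of the macrophage growth factor, at 268.7, 190.9 and 38.6 CPM. Not all of the 12 were high. Itgam and Coro1a were counted in CAF_sc354 alone of the 5 programme cells with more Rgs5, at 7.46 and 14.9 CPM. The lymphocyte markers Cd3e and Cd79a were at 0 in all 5. The 12 fibroblast markers summed to 5291, 2814 and 9951 CPM in these 3, against 6989 to 37174 CPM in the other 12 programme cells. The 10 pericyte markers, Rgs5 among them, summed to 2791, 1046 and 12737 CPM in the same 3 and to 8254 CPM in CAF_sc425, against 406.9 to 2692 CPM in the other 11, so CAF_sc103 was the highest of all 15. No doublets were called, and the part of immune RNA in the Rgs5 result was not tested.

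In the whole series 13 cells had at least 2000 CPM of immune markers, a limit set after the values were seen, and the next below them had 1396 CPM. More Rgs5 than Pdgfra was present in 10 of the 13. Of these 13, 3 carried a programme (23.1%, interval 5.04 to 53.8), against 12 of the remaining cells (2.68%, interval 1.39 to 4.64). Without the 13, Rgs5 was above in 2 of 12 programme cells (16.7%), and a programme was carried by 1.04% of cells with more Rgs5 and 3.94% of those with more Pdgfra. The 3 programme cells removed all had more Rgs5. These shares rest on 2 and 10 programme cells, no interval is given for them, and no difference was tested. The counts of other cell cycle genes at least 4 times higher were then 48 of 50 for G2/M and 35 of 54 for S, beside 2.34% of all genes.

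**Figure D5:**
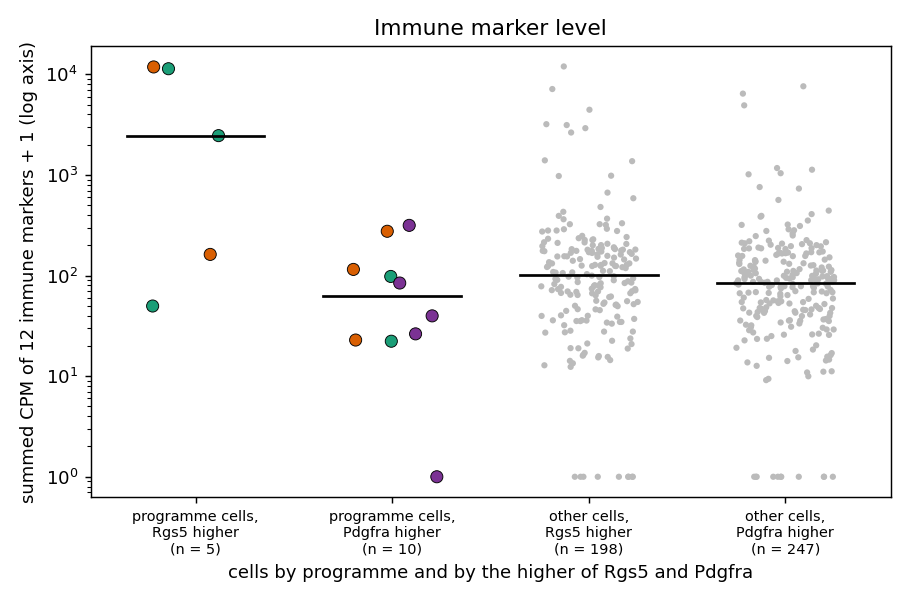
Summed CPM of the 12 immune markers plus 1 (log axis) in programme and other cells with more Rgs5 or more Pdgfra; each point is 1 cell, shifted sideways at random, purple for both programmes, orange for G2/M alone and green for S alone, and bars are medians. Of the 5 programme cells with more Rgs5, 3 lie above 2000 CPM, and the 10 with more Pdgfra lie at or under 314.4 CPM.

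Over all cells the mean levels of the members leaned to the Pdgfra side. Of the 44 members, 20 were at least 2 times higher on average in cells with more Pdgfra and 1, Cenpa, in cells with more Rgs5. Of the 33 that passed the filter of a count in 10% of either side, the numbers were 14 and 1, beside 5.02% and 3.44% of all genes that passed. With the 15 programme cells left out, 1 of the 44 was at least 2 times higher with more Pdgfra and 2 with more Rgs5. Of the 26 that then passed the filter, 2 were at least 2 times apart in either direction, both higher with more Rgs5. That share is near the 8.42% of all genes, so it is no trait of the members. The summed G2/M members had a median of 79.8 CPM in other cells with more Rgs5 and 68.2 CPM with more Pdgfra. The summed S members had medians of 230.5 and 230.6 CPM.

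The 2 members higher on the Rgs5 side without the programme cells were Cenpa (25.03 against 8.35 CPM) and Tpx2 (6.64 against 1.71 CPM). They were singled out for this difference, so their values describe it and test nothing. Cenpa was counted in 31.3% of the other cells with more Rgs5 and 18.6% of those with more Pdgfra, and Tpx2 in 15.2% and 9.72%. Cenpa also had the smallest part of its counts in programme cells among the G2/M members, and its highest count, 46, was in CAF_sc440, which carried no programme. Mki67 was counted at near shares in the same cells with more Rgs5 (45.5%, interval 38.4 to 52.7) and with more Pdgfra (43.7%, interval 37.4 to 50.2). For Top2a these shares were 15.2%, interval 10.5 to 20.9 and 20.2%, interval 15.4 to 25.8, which overlap.

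The order of the columns holds stretches low in the surfactant gene Sftpc, taken as columns of whose 20 nearest columns over 50% had under 30 CPM of it. Programme cells made up 4 of the cells there (3.15%, interval 0.865 to 7.87) and 11 of the others (3.30%, interval 1.66 to 5.83), and these intervals overlap. The labels do not say what the order stands for.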

How the data were processed

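Whole molecular barcode counts were deposited by the authors for 48440 genes in each of 460 cells. The submitters' processing notes list STAR and HTSeq and the build mm10, with no version. The step from reads to barcode counts is not given in the sources used here. Columns were mapped to samples by title, and for 113 repeated symbols the row with the most counts was used. Members and lists were chosen with earlier results of these data known. The strain's name is not reported here. No doublet caller was run. Thinning drew 56586 counts per cell, the 10th percentile of totals. Ratios are of mean CPM plus 1. Gene positions and lengths are from GENCODE vM21 and promoters from RefSeq.

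Genes given in full are the 5 G2/M and 5 S members with the highest mean CPM in programme cells. Also named by rule are the 10 most abundant genes of each other cell cycle list and 15 unlisted genes with the largest ratio. From the G1 drivers and from the cycle inhibitors and p53 targets, those past 4 times or the 5 most abundant are named. Further members are given by range or as examples chosen after their values were seen. The alternatives without cells rich in immune markers, without S-only cells under 16 S members or without those not apart in other S genes, were also chosen after seeing the data. The programme limits and the ratios were tried on simulated cells in which all members had the same low level outside the programme cells. Stray S members such as Pcna and Slbp were more abundant in these data, so that trial does not bear on the S limit. The software was Python (3.11.15) with numpy (2.4.6), pandas (2.3.3), scipy (1.17.1) and matplotlib (3.10.9).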

Additional observations from a re-analysis of the deposited data

How the results depend on the processing

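Numbers and shares of cells, and the share of member counts, were held against the counting interval of the reported value, and numbers of genes against 1.5 times the reported number. Of 76 alternative values 61 stayed within these bounds and 15 did not. Looser limits add cells by construction: with 1 count per member in place of 3, the S programme was in 32 cells and either programme in 36, and the programme share was 6.40% of cells with more Rgs5 and 8.95% with more Pdgfra. With 9 of 25 and 7 of 19 members required, the S programme was in 25 cells and either in 29. With 19 of 25 and 15 of 19 required, 9 cells qualified, Rgs5 was above in 11.1% of them, and the share was 0.493% of cells with more Rgs5. The part of the member counts in programme cells was 32.8% after thinning, 33.2% without the deepest 5% of cells, which held 4 of the 15, and 41.7% without cells rich in immune markers. The share of genes at least 4 times higher in programme cells was 3.38%. With 5 CPM in place of 1 added to each mean it was 1.74%, without cells rich in immune markers 2.34%, and without the filter 2.004% of a larger set of genes. The share at least 2 times apart between the sides was 8.46%, with 5 CPM added 5.04%, and without the filter 6.45%; the number of members among them was 15, 3 and 21. Rgs5 was above in 2 of 10 programme cells (20%) after thinning and in 5 of 11 (45.5%) without the deepest cells. It was above in 2 of 11 (18.2%) both with at least 5 counts per member and without the S-only cells under 16 S members. CAF_sc51, CAF_sc71, CAF_sc84, CAF_sc153, CAF_sc155, CAF_sc354, CAF_sc360, CAF_sc365 and CAF_sc441 met the limits under all 5 changes of limit or depth, and of these CAF_sc354 alone had more Rgs5. CAF_sc103, CAF_sc222 and CAF_sc442 met them under 3, and CAF_sc239, CAF_sc262 and CAF_sc425 under 2. However, 2 of the 5 changes, 1 count per member and 9 of 25 and 7 of 19 members, only loosen the limits. Every programme cell met those 2 by construction. Of the changes that could remove a cell, CAF_sc103, CAF_sc222 and CAF_sc442 thus met 1 each, and CAF_sc239, CAF_sc262 and CAF_sc425 met none. Where no construction is named, the cause was not tested. The number of programme cells limits every share, and the labels allow no comparison between animals. No paired analysis was possible because there is 1 group.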
